A study of Homo sapiens with 12 samples.

Results

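The genes described here are the nuclear genes of the mitochondrial respiratory complexes and of their complex I assembly factors. They were taken from the 19775 genes with a probe set of their own on the array, as every gene whose symbol in the platform annotation begins with NDUFA, NDUFB, NDUFC, NDUFS, NDUFV, UQCR, COX4, COX5, COX6, COX7, COX8 or ATP5, together with the succinate dehydrogenase genes and CYC1. This rule gave 89 genes after 2 pseudogenes were left out, and each gene is represented by its probe set of highest mean over the 12 arrays. Of the 89, 33 encode subunits of complex I (5 core and 28 accessory), 8 encode complex I assembly factors of the NDUFAF family, 3 encode subunits of complex II, 7 of complex III, 17 of complex IV and 18 of ATP synthase, and 3 are noncoding RNAs that share the prefixes. Of the succinate dehydrogenase genes, SDHA, SDHC and SDHD were analysed here. The bright probe sets of NDUFS5, NDUFS8, NDUFC2, UQCRH and ATP5MF are annotated to several genes each and were not used.

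Gene expression had been measured on Affymetrix U133 Plus 2.0 arrays in 6 groups of 2 arrays: SW780 with siKDM3A, siFFluc or siEGFP, and A549 with siKDM3A, siFFluc or siEGFP. SW780 is a bladder carcinoma line, grown in Leibovitz L-15 medium, and A549 is a lung adenocarcinoma line, grown in RPMI1640. Both media held serum, and the labels give growth with or without CO2 but not for which line. All cells were transfected by lipofection with an siRNA duplex at 100 nM and taken after 24 h: siKDM3A targets the histone demethylase gene KDM3A, which acts on methylated H3K9, and siFFluc and siEGFP, named for reporter genes, served here as the controls. The labels do not say whether the 2 arrays of a group came from separate cultures, so the p-values rest on a spread between arrays that may be technical alone. No other siRNA against KDM3A is named in the labels, so loss of KDM3A and other effects of the duplex cannot be told apart. In bulk RNA of a culture, fewer cells that express a gene and less RNA per cell cannot be told apart.

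Complex I takes electrons from NADH and complex II takes them from succinate. Complex III passes them to cytochrome c, complex IV passes them on to oxygen, and ATP synthase uses the proton gradient built by complexes I, III and IV to make ATP. Complex II is encoded in the nucleus alone, whereas the other complexes also hold subunits made from mitochondrial DNA. In human cells many of the nuclear genes have promoters without a TATA box and with sites for the transcription factors NRF1 and GABP, and coactivators of the PGC-1 family act on them. Leibovitz L-15 carries galactose in place of glucose, and cells fed galactose depend more on respiration, which is background for the comparison of the lines.

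The target of the siRNA was examined first. KDM3A had signals of 197 and 223 on the siKDM3A arrays, against 359 and 433 under siFFluc and 409.8 and 373 under siEGFP in SW780 (log2 difference -0.86 ± 0.10 by limma, adjusted p = 2.63e-04). In A549 it had 693 and 712 on the siKDM3A arrays, against 1519 and 1437 under siFFluc and 1299.7 and 1307 under siEGFP (-0.97 ± 0.10, adjusted p = 8.02e-05). No siKDM3A array reached the level of any control array of its line. The summed signal of 7 urothelial markers ranged from 25591 to 33459 on the SW780 arrays and from 3380 to 4006 on the A549 arrays. UPK3A was near 0 and UPK2 and KRT20 were dim on all 12 arrays. The summed signal of 7 lung alveolar markers ranged from 712 to 1002 on the SW780 arrays and from 498 to 663 on the A549 arrays. LAMP3 was the marker with the higher signal in SW780 on every array (402.7 to 738.9 in SW780 and 67.7 to 127.2 in A549), while ABCA3 stood the other way (6.0 to 33.9 in SW780 and 150.9 to 226.7 in A549). SFTPD and NKX2-1 were dim on the A549 arrays. All arrays had the same trimmed mean of 500.1. The siKDM3A arrays nevertheless had the highest medians of the line in SW780 (58.1 and 54.3, against 50.3 to 54.2) and the lowest in A549 (53.1 and 51.9, against 57.4 to 59.1). The ratio of the 3' to the 5' control probe sets of beta-actin was likewise highest under siKDM3A in SW780 (1.51 and 1.61, against 1.39 to 1.44) and lowest under siKDM3A in A549 (1.19 and 1.16, against 1.20 to 1.29). The part of these array properties in the results below was not tested.

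The first question was how the genes of each complex stood under siKDM3A. Changes were small in both lines: no gene that passed the test under siKDM3A differed from the controls by 2-fold. In SW780, UQCRC1, the core 1 protein of complex III, and NDUFV1, the complex I subunit that binds NADH, fell, and the complex I accessory subunit gene NDUFA6 rose. In A549, with the arrays as deposited, the genes that passed the test were nearly all higher, and the complex II gene SDHD fell. The rises were led, on the chosen probe sets, by the complex I genes NDUFV3, NDUFC1, NDUFV2 and NDUFA7. Second probe sets of NDUFC1 and NDUFA7 were of the other sign. Each change is siKDM3A minus the mean of both controls on the log2(signal + 16) scale, given with its SE and limma's adjusted p over the 14057 genes tested, with a threshold of 0.05.

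Of the 89 genes, 86 had a probe set bright enough to test (a mean over the 12 arrays at or above the 40th percentile, a signal of 29.6). In SW780, 11 of the 86 passed the test (12.8%), against 11.9% of all genes, with 7 higher (8.14%, against 5.73%) and 4 lower (4.65%, against 6.18%). In A549, 13 passed (15.1%), against 11.7% of all genes, with 12 higher (14.0%, against 5.33%) and 1 lower (1.16%, against 6.37%). The median change of the 86 genes was 0.08 in SW780, against 0.03 over all genes, and 0.13 in A549, against -0.02. Both siKDM3A arrays lay above all 4 control arrays for 54 of the 86 genes in A549 (62.8%, against 17.0% of all genes) and below them for 2 (2.33%, against 19.9%). In SW780 they lay above for 20 (23.3%, against 15.4%) and below for 7 (8.14%, against 13.3%). Across the 86 genes the changes in the lines correlated weakly (Pearson r = -0.06 and Spearman rho = 0.25, over all genes 0.20 and 0.21), where the genes share arrays and are not independent. The Pearson value includes the dim noncoding RNA NDUFV1-DT, with -1.17 in A549 and 0.49 in SW780. The changes had the same sign in both lines for 70.9% of the 86 genes, against 58.8% of all genes.

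The A549 shift was a small one of many genes. The median of each array over the 86 genes, as a deviation from each gene's mean over the 12 arrays, was 0.00 and -0.01 on the A549 siKDM3A arrays, against -0.12 and -0.15 under siFFluc and -0.16 and -0.13 under siEGFP. The same median was 0.17 and 0.12 on the SW780 siKDM3A arrays, against 0.12 and 0.18 under siFFluc and 0.06 and -0.03 under siEGFP. The groups were thus separate in A549 and overlapped in SW780. The median over all 14057 genes went the other way in A549, with 0.04 and 0.03 on the siKDM3A arrays, against 0.06 to 0.08 on the controls.

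**Figure D1:**
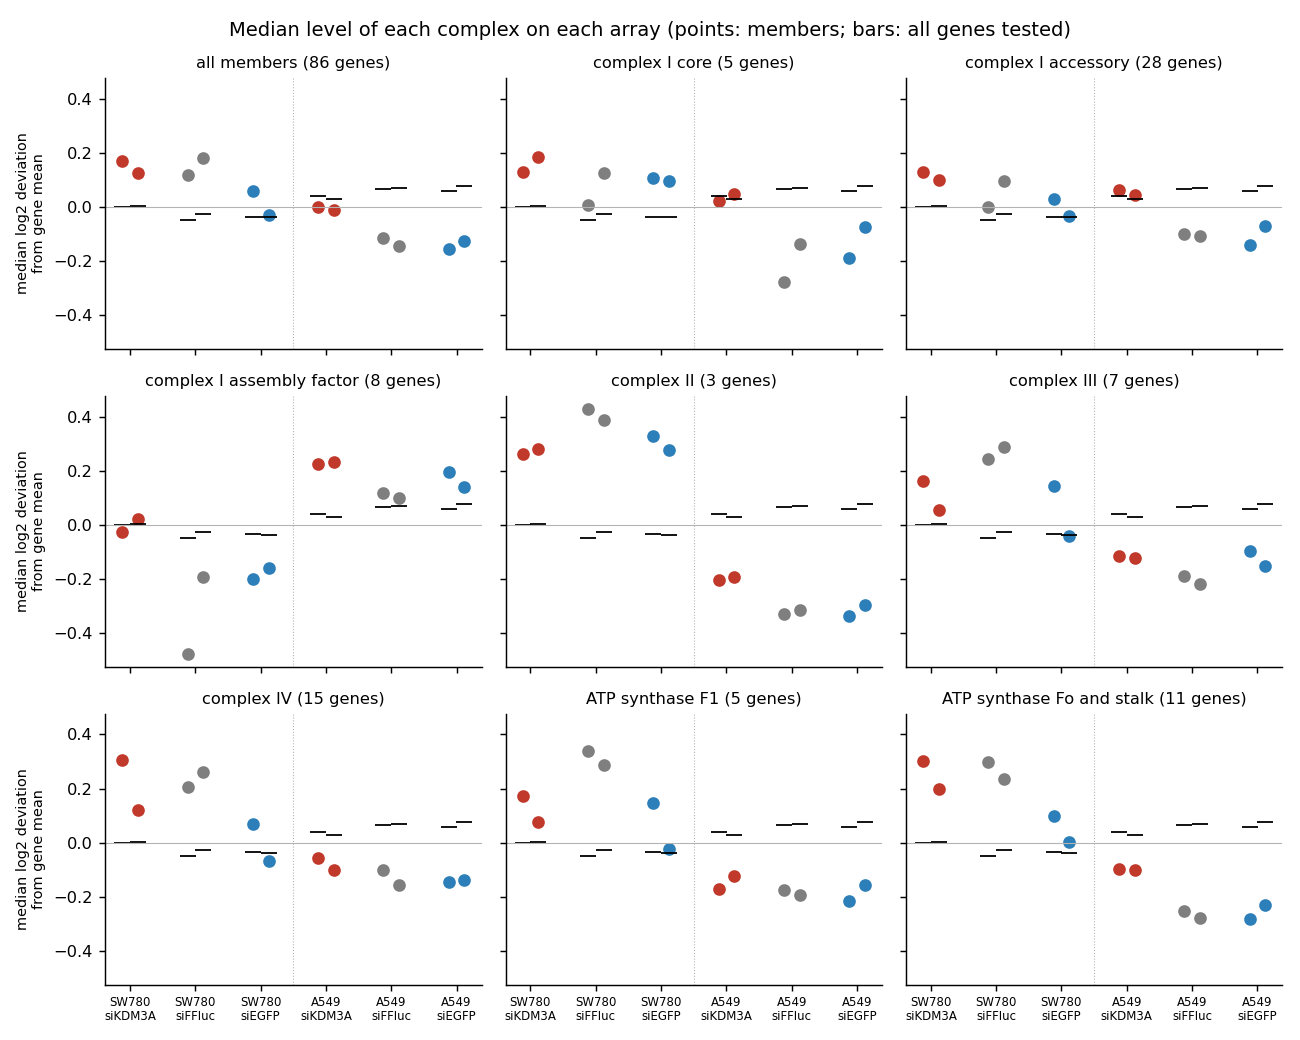
Median level of each complex on each array, as log2 deviation from each gene's mean over the 12 arrays (vertical axis), by group (horizontal axis). Points are the arrays, coloured by siRNA, and bars give the median of all genes tested on the same array. For all 86 genes the A549 siKDM3A points, at 0.00 and -0.01, stand above the A549 control points, at -0.16 to -0.12. The SW780 siFFluc points are the higher of the SW780 controls in most panels.

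The counts depended on single arrays, on the scaling and on the estimate of spread. In A549, 3 genes passed without siKDM3A replicate 2 and 5 without siKDM3A replicate 1. In the same line 25 passed without either SW780 siFFluc array, which enters through the shared estimate of spread. In SW780, 29 passed without siFFluc replicate 2, 4 without siKDM3A replicate 2, and 6 without siKDM3A replicate 1 or without siEGFP replicate 2. With the arrays scaled to the same median, 51 passed in A549 (51 higher and 0 lower) and 6 in SW780 (0 higher and 6 lower). After quantile normalization 9 rose and 3 fell in A549, and 9 rose and 5 fell in SW780. With the mean over probe sets 9 rose and 2 fell in A549, and 10 rose and 5 fell in SW780. Without the intensity trend in the variance prior, 4 passed in A549 and 3 in SW780. The share of all genes that passed at each setting is not given beside these counts. They therefore do not show how far these genes stand apart from the rest. Median scaling also moved the median of all genes, to 0.12 in A549 and to -0.07 in SW780. Relative to the median of all genes the 86 genes' median was 0.15 in A549 with the arrays as deposited, 0.16 with median scaling and 0.07 after quantile normalization, and 0.05, 0.04 and 0.05 in SW780.

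**Figure D2:**
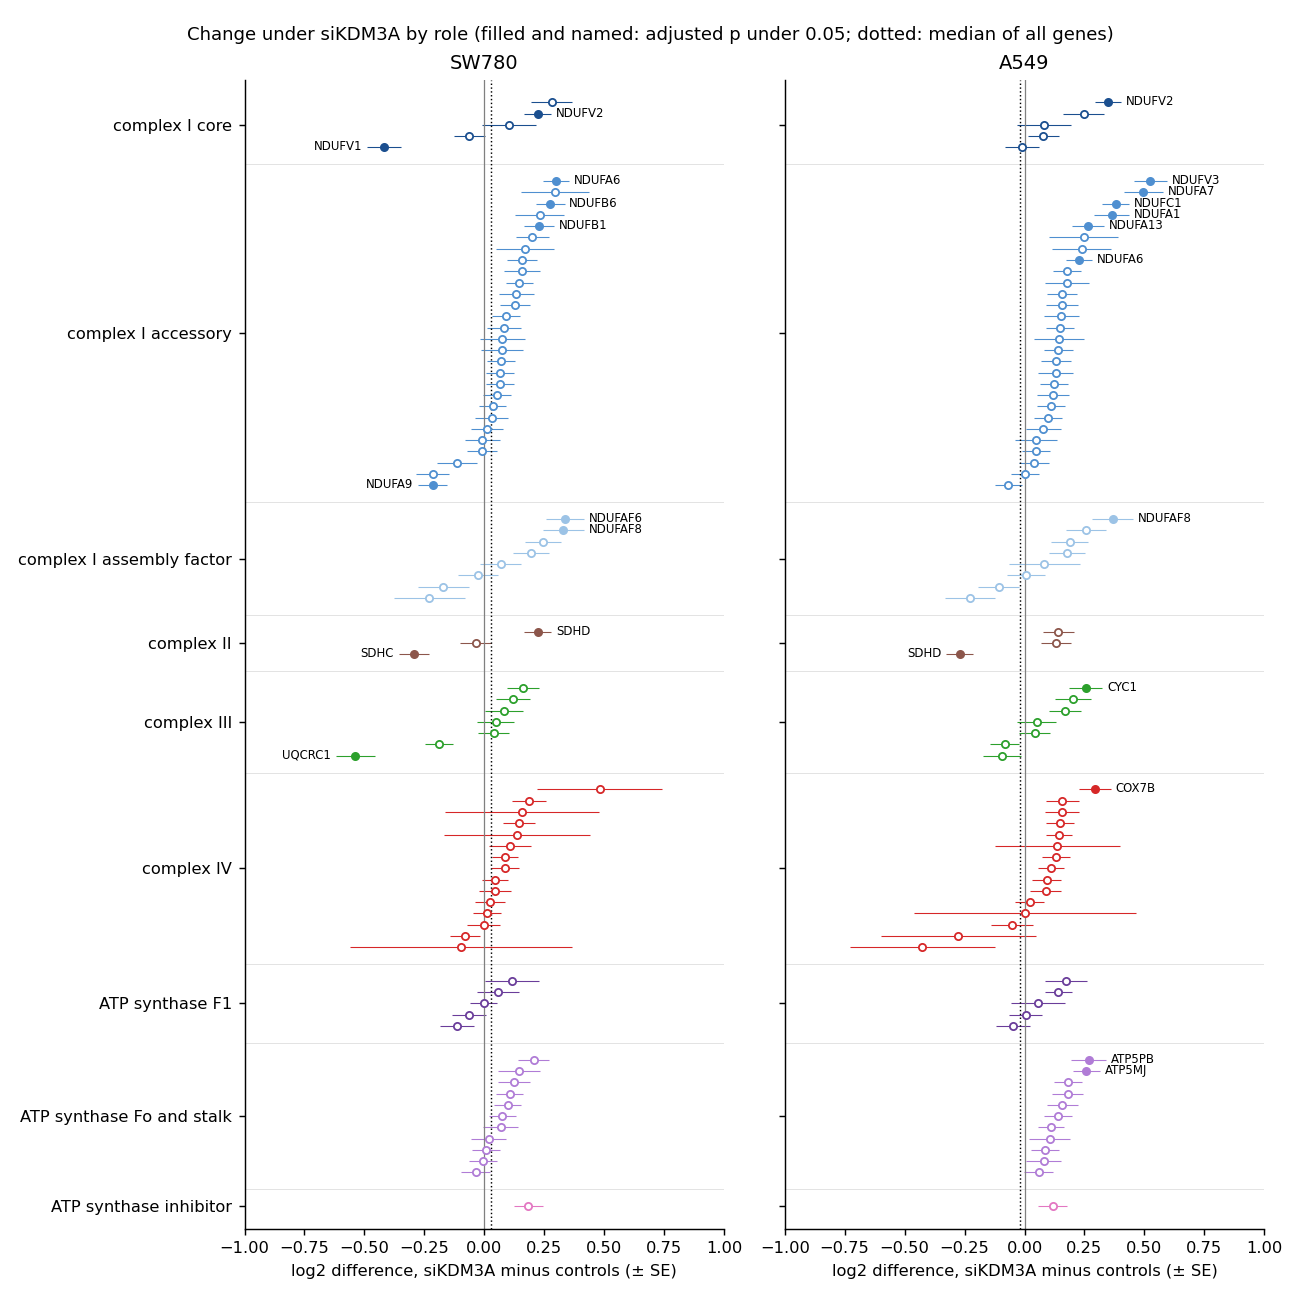
Change of every tested protein-coding gene under siKDM3A, as the log2 difference from the controls ± SE (horizontal axis), in SW780 (left) and A549 (right), ordered within each role by the size of the change. Filled and named points passed the test, and the dotted line is the median of all genes, at 0.03 in SW780 and -0.02 in A549. In A549, 12 of the 13 filled points lie to the right of 0. In SW780, 7 of 11 do.

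The promoters of these genes were searched for the letters that NRF1, GABP, YY1 and SP1 are known to bind, and for the TATA box. Promoter windows from RefSeq (GRCh38.p14), from 250 bases before to 50 bases after the start, were at hand for 73 of the 86 protein-coding genes, and motifs were counted on both strands. The GABP letters CCGGAAG stood in 19 of these 73 windows (26.0%), against 14.2% of 15843 protein-coding promoters. The NRF1 letters GCGCATG stood in 15 (20.5%), against 5.87%, and the YY1 letters GATGGCG in 8 (11.0%), against 5.71%. The SP1 letters GGGCGGG stood in 19 (26.0%), against 44.4%, and the TATA letters TATAAA in 7 (9.59%), against 9.63%. The 180 bases before the start are shown 5' to 3' for 4 genes described below that changed and hold GABP or NRF1 letters there, with motif matches in capitals. Those of NDUFA6 are chr22:42090773-42090952 (minus strand), with NRF1 and then SP1 letters, both on the opposite strand. Those of NDUFA1 are chrX:119871652-119871831 and those of NDUFA13 chr19:19516045-19516224 (both plus strand), with GABP letters on the opposite strand in NDUFA1 and on the same strand in NDUFA13. Those of SDHD are chr11:112086693-112086872 (plus strand), with overlapping NRF1 letters on both strands and GABP letters after them. The 4 genes shown were picked because they changed and hold these letters. The other genes that passed under siKDM3A and had a window held neither GABP nor NRF1 letters. Those genes were NDUFV1, NDUFV2, NDUFV3, NDUFA7, NDUFA9, NDUFB1, NDUFB6, NDUFC1, NDUFAF8, UQCRC1, COX7B, ATP5MJ and ATP5PB. A match is a description of the letters and not of binding.
NDUFA6: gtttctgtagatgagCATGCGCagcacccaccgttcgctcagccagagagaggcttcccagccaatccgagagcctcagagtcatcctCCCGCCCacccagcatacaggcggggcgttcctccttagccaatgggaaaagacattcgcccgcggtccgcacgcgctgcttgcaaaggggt
NDUFA1: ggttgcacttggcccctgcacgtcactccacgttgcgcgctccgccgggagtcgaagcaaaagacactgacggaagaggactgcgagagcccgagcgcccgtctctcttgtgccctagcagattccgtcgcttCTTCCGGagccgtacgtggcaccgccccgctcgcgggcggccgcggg
NDUFA13: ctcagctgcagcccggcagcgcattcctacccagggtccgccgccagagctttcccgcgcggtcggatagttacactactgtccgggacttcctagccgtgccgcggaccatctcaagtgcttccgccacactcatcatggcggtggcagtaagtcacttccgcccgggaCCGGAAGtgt
SDHD: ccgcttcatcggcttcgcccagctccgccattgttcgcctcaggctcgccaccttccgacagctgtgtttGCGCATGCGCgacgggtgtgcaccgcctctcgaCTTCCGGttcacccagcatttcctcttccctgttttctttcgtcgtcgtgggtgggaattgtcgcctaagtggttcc

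Among the 5 core subunits of complex I, all of the matrix arm that takes electrons from NADH towards ubiquinone, NDUFV2 rose in both lines and NDUFV1 fell in SW780. NDUFV2, an iron-sulfur subunit beside the NADH site, had signals of 8239 and 8049 on the siKDM3A arrays, against 6851 and 7343 under siFFluc and 6888 and 6841 under siEGFP in SW780. In A549 it had 6505 and 6607 on the siKDM3A arrays, against 5253 and 5531 under siFFluc and 4805 and 5025 under siEGFP. The siKDM3A arrays were the highest of each line, with log2 differences of 0.22 ± 0.06 in SW780 (adjusted p = 0.0212) and of 0.35 ± 0.06 in A549 (adjusted p = 0.00141). NDUFV1, its partner that holds the flavin and binds NADH, had 3708 and 3066 on the siKDM3A arrays, against 4620.3 and 4708 under siFFluc and 4393 and 4332 under siEGFP in SW780, the lowest signals of the line (-0.42 ± 0.07, adjusted p = 0.0025). In A549 NDUFV1 had 5111 and 5207 on the siKDM3A arrays, against 4992 and 5293 under siFFluc and 5164 and 5332 under siEGFP, which overlapped (-0.01 ± 0.07, adjusted p = 0.960). NDUFS3, a core subunit of the matrix arm, just missed the threshold in SW780 (0.28 ± 0.09, adjusted p = 0.0506) and missed it in A549 (0.25 ± 0.09, adjusted p = 0.0829). NDUFS1 and NDUFS7 had changes of -0.06 and 0.10 in SW780 and of 0.08 in both cases in A549, and did not pass. The A549 call of NDUFV2 and the SW780 call of NDUFV1 held in all 24 alternatives. Both genes have 1 kept probe set, so the alternatives that change the probe set left their signals as they were. The SW780 call of NDUFV2 ended with either siKDM3A array left out (adjusted p = 0.145 and 0.0898), without siEGFP replicate 2 (0.0527), against siFFluc alone (0.0574) and under median scaling (0.272).

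Of the 28 accessory subunits, which surround the core and are needed to build and hold it, 3 rose and 1 fell in SW780 (14.3% passed, against 11.9% of all genes), and 6 rose and none fell in A549 (21.4%, against 11.7%). The median change was 0.08 in SW780, against 0.03 over all genes, and 0.15 in A549, against -0.02. Of the 28 changes in A549, 27 were above 0, against 6626 of the 14057 over all genes.

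NDUFA6, which carries a LYR motif and holds the mitochondrial acyl carrier protein on the complex, rose in both lines. Its signals were 9956 and 9635 on the siKDM3A arrays, against 7909.7 and 8191 under siFFluc and 7842 and 7889 under siEGFP in SW780 (0.30 ± 0.05, adjusted p = 0.00359). In A549 they were 8425 and 8636 on the siKDM3A arrays, against 7303 and 7521 under siFFluc and 6944 and 7398 under siEGFP (0.23 ± 0.05, adjusted p = 0.017). In both lines the siKDM3A arrays stood clear of all 4 controls. NDUFA6 is the gene whose promoter, shown above, has NRF1 letters far from the start. The SW780 call ended under median scaling (adjusted p = 0.0682). The A549 call ended without either siKDM3A array (0.107 and 0.176), without siFFluc replicate 1 (0.0577), against siFFluc alone (0.059) and after quantile normalization (0.0545).

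In A549 the largest rises were of NDUFV3 and NDUFA7, subunits of the NADH-oxidising part of the matrix arm, and of NDUFC1 and NDUFA1 of the membrane arm. NDUFV3 had signals of 3986 and 3748 on the siKDM3A arrays, against 2561 and 2682 under siFFluc and 2765 and 2727 under siEGFP (0.52 ± 0.07, adjusted p = 3.86e-04). NDUFC1 had 8077 and 7627 on the siKDM3A arrays, against 6164 and 5755 under siFFluc and 6043 and 6156 under siEGFP (0.38 ± 0.06, adjusted p = 8.37e-04). For both genes the lower siKDM3A array was far above the highest control, while in SW780 the changes were 0.20 ± 0.07 and 0.09 ± 0.06 and did not pass. NDUFA7 had 1889.5 and 2013 on the siKDM3A arrays, against 1383 and 1315 under siFFluc and 1377 and 1439.5 under siEGFP (0.50 ± 0.08, adjusted p = 0.00195). NDUFA1, whose loss blocks complex I assembly in human and rodent cells, had 17703 and 17082 on the siKDM3A arrays, against 12992 and 14529.8 under siFFluc and 12289 and 14386 under siEGFP (0.36 ± 0.07, adjusted p = 0.00679). NDUFA13, also known as a cell death regulator, had 7511 and 7379.8 on the siKDM3A arrays, against 6175 and 5982 under siFFluc and 6106 and 6499 under siEGFP (0.27 ± 0.07, adjusted p = 0.0225). The siKDM3A arrays exceeded all 4 controls for each of these genes.

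These A549 calls rest on the chosen probe sets and arrays to different degrees. A second NDUFA7 probe set was of the other sign (-0.50), as was a second NDUFC1 probe set (-0.11), so that with the mean over probe sets NDUFA7 had -0.0015 (adjusted p = 0.998) and NDUFC1 0.14 (adjusted p = 0.426). NDUFV3 had 0.19 (adjusted p = 0.459) on its brightest probe set without the ID ending that marks probes shared by several transcripts. The NDUFA7 call ended without siKDM3A replicate 2 (adjusted p = 0.0527), and the NDUFA1 call without replicate 1 or 2 of siKDM3A (0.0949 and 0.0604). The NDUFA13 call ended without either of those (0.177 and 0.137), without siEGFP replicate 1 (0.0619), without siFFluc replicate 2 (0.0665) against siEGFP alone (0.0815) and after quantile normalization (0.0607).

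In SW780, NDUFB6 and NDUFB1 of the membrane arm rose and NDUFA9, which sits near the ubiquinone site, fell. NDUFB6 had signals of 5632 and 5914 on the siKDM3A arrays, against 4158 and 4506 under siFFluc and 5432 and 5056 under siEGFP (0.28 ± 0.06, adjusted p = 0.00926). The siKDM3A arrays were the highest of the line, but the control siRNAs also differed for this gene, and against siEGFP alone the call ended (0.266), as it did without siKDM3A replicate 2 (0.099) and under median scaling (0.150). NDUFB1 had 18599.7 and 17459 on the siKDM3A arrays, against 16483 and 16112 under siFFluc and 15352 and 13687 under siEGFP (0.23 ± 0.06, adjusted p = 0.0309), with 0.79 on its other probe set. NDUFA9 had 4193 and 4386 on the siKDM3A arrays, against 4628 and 5159 under siFFluc and 5109.8 and 5049 under siEGFP (-0.22 ± 0.06, adjusted p = 0.0335). Both stood just beyond the controls, and each call ended in 11 of 24 alternatives, with adjusted p of up to 0.336 for NDUFB1 (median scaling) and up to 0.223 for NDUFA9 (without SW780 siKDM3A replicate 1). The arrays without which one or the other of these calls ended were both siKDM3A arrays and both siEGFP arrays of SW780, and both siKDM3A and both siFFluc arrays of A549. The other accessory subunit genes did not pass the test in either line and had changes of -0.22 to 0.30 in SW780 and of -0.07 to 0.25 in A549. Both ends of the SW780 range, NDUFA10 and NDUFB7, depended on the probe set. There the 3 other NDUFA10 probe sets had 0.36 to 0.97, and the other NDUFB7 probe set had -0.77.

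Of the 8 assembly factors, which build complex I and leave it, NDUFAF6 and NDUFAF8 rose in SW780, NDUFAF8 rose in A549, and none fell (25.0% in SW780, against 11.9% of all genes, and 12.5% in A549, against 11.7%). NDUFAF6 had signals of 2623 and 2768 on the siKDM3A arrays, against 1773 and 2191 under siFFluc and 2367 and 2243 under siEGFP in SW780 (0.34 ± 0.08, adjusted p = 0.0147), all siKDM3A values being above the controls. In A549 NDUFAF6 differed by 0.01 ± 0.08 (adjusted p = 0.973). NDUFAF8, which stabilises NDUFAF5, had 5559.7 and 6179.5 on the siKDM3A arrays, against 3916 and 4955 under siFFluc and 4870.2 and 4998 under siEGFP in SW780 (0.33 ± 0.09, adjusted p = 0.0258). In A549 it had 8353 and 8523 on the siKDM3A arrays, against 5855 and 6317 under siFFluc and 7317 and 6726 under siEGFP (0.37 ± 0.09, adjusted p = 0.0156). Both lines showed the siKDM3A arrays on top, but the other NDUFAF8 probe set had changes of -0.22 and -0.12. The calls of NDUFAF8 ended without either siKDM3A array of the line, with adjusted p of 0.0597 and 0.228 in SW780 and of 0.104 and 0.136 in A549. They also ended in SW780 without siEGFP replicate 1 or 2 (0.0684 and 0.0547) and in A549 without siFFluc replicate 1 (0.052), in both lines against siEGFP alone (0.171 and 0.131), and in SW780 under median scaling (0.128). That of NDUFAF6 ended without either SW780 siKDM3A array (0.0648 and 0.135), against siEGFP alone (0.173) and under median scaling (0.0847).

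The genes of complex II did not move together. SDHD and SDHC encode its membrane anchors and SDHA its flavoprotein. SDHD had signals of 10669 and 9894 on the siKDM3A arrays, against 9235 and 8873 under siFFluc and 8603 and 8505 under siEGFP in SW780. In A549 SDHD had 4601 and 4346 on the siKDM3A arrays, against 5530.4 and 5499 under siFFluc and 5414 and 5158 under siEGFP. The siKDM3A arrays were the highest of the line in SW780 (0.22 ± 0.06, adjusted p = 0.0232) and the lowest in A549 (-0.27 ± 0.06, adjusted p = 0.00881). SDHC had 4739 and 4417 on the siKDM3A arrays, against 5875 and 5976 under siFFluc and 5391 and 5238 under siEGFP in SW780, below all controls (-0.29 ± 0.06, adjusted p = 0.0102). In A549 SDHC had 3762 and 3795 on the siKDM3A arrays, against 3428 and 3539.6 under siFFluc and 3204 and 3638 under siEGFP, where every siKDM3A signal was above the controls but the change did not pass (0.13 ± 0.06, adjusted p = 0.222). SDHA did not pass in SW780 (-0.04 ± 0.07, adjusted p = 0.791) or in A549 (0.14 ± 0.07, adjusted p = 0.198).

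The SDHD call in SW780 ended without siKDM3A replicate 1 (adjusted p = 0.220), without siEGFP replicate 1 or 2 (0.0517 and 0.0579), against siFFluc alone (0.085) and under median scaling (0.318). In A549 it ended without siKDM3A replicate 2 (0.142) and under median scaling (-0.12, adjusted p = 0.296). The SDHC call ended without SW780 siKDM3A replicate 2 (0.119) and against siEGFP alone (0.108), and the 5 other SDHC probe sets ranged from -0.76 to 0.29.

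Of the 7 complex III genes, UQCRC1 fell in SW780 and CYC1, the cytochrome c1 that hands electrons to cytochrome c, rose in A549. In each line 14.3% passed, against 11.9% of all genes in SW780 and 11.7% in A549. UQCRC1 had signals of 3599 and 2979 on the siKDM3A arrays, against 4644 and 5147 under siFFluc and 4336 and 4952 under siEGFP in SW780, all siKDM3A values being below the controls (-0.54 ± 0.08, adjusted p = 0.0013). In A549 UQCRC1 had 6717 and 6959.6 on the siKDM3A arrays, against 6372 and 6639 under siFFluc and 6499 and 6906 under siEGFP, the groups overlapping (0.05 ± 0.08, adjusted p = 0.776). The SW780 fall of UQCRC1 passed in all 24 alternatives, though it has 1 kept probe set, which the alternatives that change the probe set left as it was. CYC1 had 16546 and 16533 on the siKDM3A arrays, against 13806 and 13152 under siFFluc and 14222 and 14277 under siEGFP in A549 (0.26 ± 0.07, adjusted p = 0.0319). Its siKDM3A arrays were the highest of the line, but the call ended with any 1 of the 6 A549 arrays left out (adjusted p of 0.0583 to 0.197) against siEGFP alone (0.131) and after quantile normalization (0.102). UQCRC2, the other core protein, missed the threshold in SW780 (-0.19 ± 0.06, adjusted p = 0.0575) with signals of 11439 and 10635 on the siKDM3A arrays, against 13479 and 13231 under siFFluc and 12103 and 11608 under siEGFP. The small subunit genes UQCR10, UQCR11, UQCRB and UQCRQ had changes of 0.04 to 0.16 in SW780 and of -0.09 to 0.20 in A549, none past the test.

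**Figure D3:**
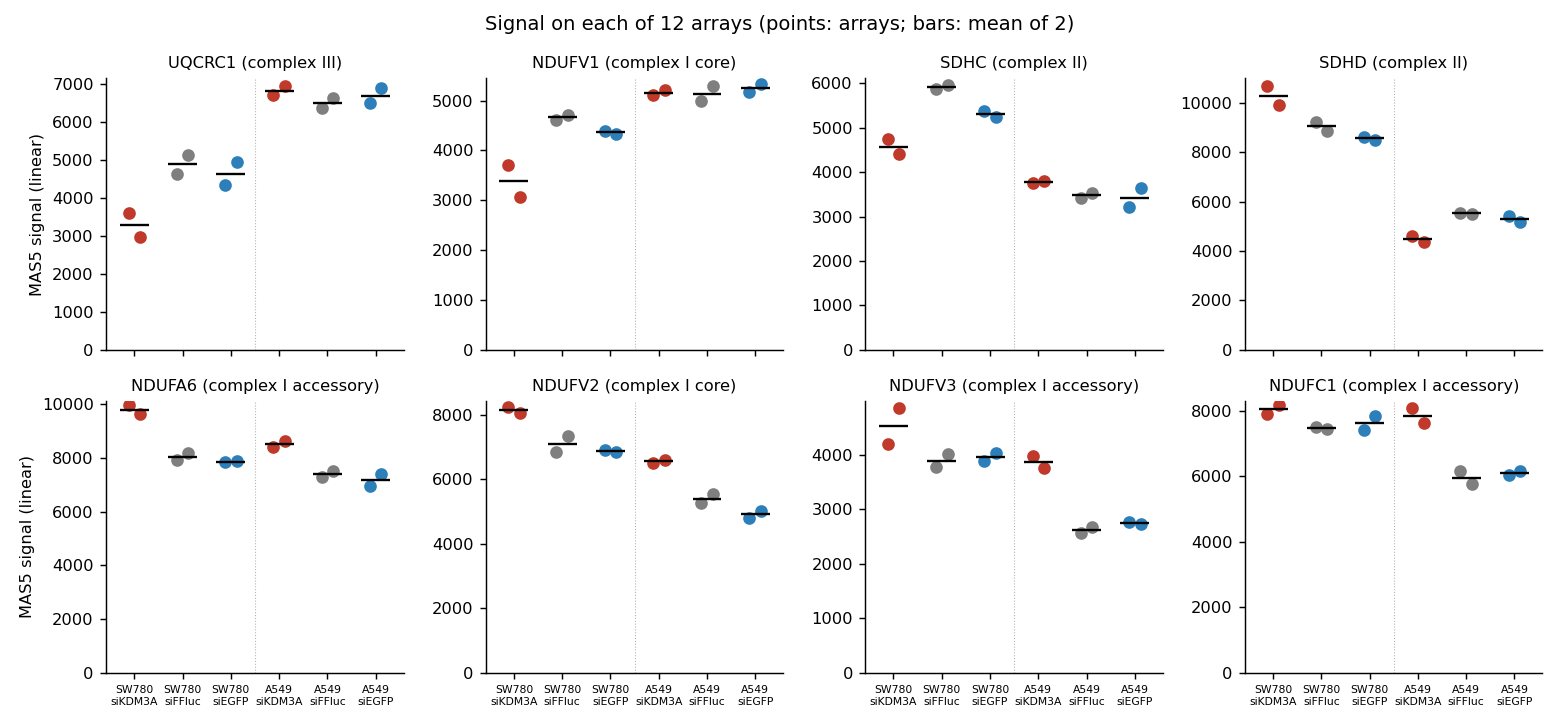
Signal on the linear scale (vertical axis, from 0) of 8 genes on each of the 12 arrays, by line and siRNA (horizontal axis). Points are arrays and bars are means of 2. UQCRC1, NDUFV1 and SDHC are lowest under siKDM3A within SW780, SDHD is highest in SW780 and lowest in A549 under siKDM3A, and the 4 genes of the lower row are highest under siKDM3A in both lines, where NDUFV3 and NDUFC1 passed the test in A549 only.

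Of the 15 tested complex IV genes none passed limma's test in SW780, against 11.9% of all genes. There were 2 at an unadjusted p under 0.05, against 3622 of the 14057 over all genes. In A549, 1 rose (6.67%, against 11.7% of all genes), COX7B, a small subunit needed for assembly of the complex. COX7B had signals of 17770.0 and 17449 on the siKDM3A arrays, against 14399.7 and 13613 under siFFluc and 14552 and 14936 under siEGFP in A549 (0.29 ± 0.07, adjusted p = 0.0133), with the siKDM3A arrays above all controls. The call ended without either siKDM3A array (0.132 and 0.106) and against siEGFP alone (0.0612). The widespread isoforms COX4I1, COX6A1, COX6B1, COX7A2 and COX8A, each of which has a tissue-limited partner, had changes of 0.01 to 0.11 in SW780 and of -0.05 to 0.14 in A549, and none passed.

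The partner isoforms were dim in these lines. COX4I2, the lung and hypoxia isoform, had signals of 68.4 to 144 over the 12 arrays, COX6A2 of muscle 29.9 to 92.6 and COX6B2 of testis 14.6 to 104. None of these passed the test, with changes in SW780 and A549 of 0.48 and 0.14 for COX4I2, 0.14 and -0.43 for COX6A2 and -0.10 and 0.0035 for COX6B2. COXFA4, the complex IV subunit once counted to complex I as NDUFA4, lies outside the prefixes and did not pass (0.10 and 0.16). Its relative COXFA4L3, named after its values were seen, fell in A549 (-0.36 ± 0.07, adjusted p = 0.00746). COX7A1 of muscle, COX8C of testis and the one usable probe set of ATP5MF reached at most 26.7, 41.4 and 50.3 on any array, and these genes were not tested.

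Of the 17 tested ATP synthase genes none passed limma's test in SW780, against 11.9% of all genes. There were 2 at an unadjusted p under 0.05, against 3622 of the 14057 over all genes. In A549, ATP5MJ and ATP5PB rose (11.8% passed, against 11.7% of all genes). ATP5MJ, a small membrane subunit, had signals of 17738 and 17023 on the siKDM3A arrays, against 14575 and 14312 under siFFluc and 14447 and 14768 under siEGFP in A549 (0.26 ± 0.06, adjusted p = 0.0103). ATP5PB, the b subunit of the stalk that holds the catalytic head, had 18468 and 18113 on the siKDM3A arrays, against 15137 and 14698 under siFFluc and 15259 and 15712 under siEGFP (0.27 ± 0.07, adjusted p = 0.0316). The siKDM3A arrays exceeded all controls for both genes. The ATP5PB call ended in 11 of 24 alternatives, among them any 1 A549 array left out (adjusted p of 0.0606 to 0.216), and its other probe set had -0.23. The ATP5MJ call ended without either siKDM3A array (0.148 and 0.073). The 5 genes of the catalytic F1 head had a median change of -0.0027 in SW780 and 0.06 in A549, and the 11 tested genes of the membrane part and stalk 0.08 and 0.14. ATP5IF1, the inhibitor that binds the head when the membrane potential is low, had 0.18 ± 0.06 in SW780 (adjusted p = 0.0732) and 0.12 ± 0.06 in A549 (adjusted p = 0.264).

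The 3 noncoding RNAs, NDUFB2-AS1, NDUFV1-DT and NDUFV2-AS1, lie beside or against the genes they are named for. Their signals ranged from 14.8 to 151 over the 12 arrays, and none passed the test in either line (0 at an unadjusted p under 0.05). NDUFV1-DT had the widest values, 95.0 and 14.8 on the siKDM3A arrays, against 151 and 146 under siFFluc and 77.6 and 102 under siEGFP in A549 (-1.17 ± 0.55, adjusted p = 0.206), with replicates as far apart as the groups.

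The response of SW780 minus the response of A549 was tested in the same fit. It passed for 4 of the 86 genes (4.65%), against 2.79% of all genes, with 1 higher (1.16%, against 1.8%) and 3 lower (3.49%, against 0.989%). SDHD differed by 0.49 ± 0.08 (adjusted p = 0.0097), and UQCRC1 by -0.59 ± 0.12 (adjusted p = 0.025). SDHC differed by -0.42 ± 0.09 (adjusted p = 0.032) on the chosen probe set. The 5 other SDHC probe sets ranged from -0.53 to 0.31, with the mean over probe sets SDHC had -0.11 (adjusted p = 0.515), and the call ended in 13 of 24 alternatives. NDUFA7 differed by -0.61 ± 0.12 (adjusted p = 0.0225), and in SW780 its groups overlapped, with 702 and 642 on the siKDM3A arrays, against 650.4 and 670.4 under siFFluc and 748 and 862 under siEGFP. The second NDUFA7 probe set had 0.10, with the mean over probe sets NDUFA7 had -0.26 (adjusted p = 0.713), and the call ended in 8 of 24 alternatives. NDUFV1 narrowly missed the threshold (-0.41 ± 0.10, adjusted p = 0.0515). The difference between the lines was tested for all genes that passed in only 1 line, and apart from these 4 it did not pass. Without A549 siKDM3A replicate 2 none of the 4 calls held (adjusted p = 0.0933 for SDHD, 0.144 for UQCRC1, 0.165 for SDHC and 0.142 for NDUFA7), and 1 gene passed without any 1 of A549 siKDM3A replicate 1, A549 siFFluc replicates 1 and 2 and SW780 siKDM3A replicate 2. Without A549 siEGFP replicate 1 or SW780 siEGFP replicate 2, 2 passed, and without SW780 siFFluc replicate 1 or 2, 7 and 8 passed.

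The control siRNAs were compared with each other to show how far these genes differ without siKDM3A. In SW780, siFFluc minus siEGFP passed for 10 of the 86 genes (11.6%), against 5.71% of all genes, with 8 higher (9.3%, against 3.07%) and 2 lower (2.33%, against 2.65%). The 8 were of complex IV (COX7C and COX6A1), ATP synthase (ATP5F1B, ATP5MG, ATP5MJ, ATP5PB and ATP5PD) and complex I (NDUFB4). COX7C had signals of 29499 and 27364 under siFFluc, against 22724 and 20273 under siEGFP (0.40 ± 0.08, adjusted p = 0.0129), and ATP5F1B, the catalytic beta subunit, had 23349.9 and 22769 under siFFluc, against 18817 and 17732 under siEGFP (0.34 ± 0.08, adjusted p = 0.0301). COX6A1 had 25861 and 25803 under siFFluc, against 22067 and 20658 under siEGFP and ATP5MG had 28324 and 28750.4 under siFFluc, against 24215 and 21017 under siEGFP. For these genes both siFFluc arrays lay above both siEGFP arrays. NDUFB4 had 18795 and 18096 under siFFluc, against 15721 and 15133 under siEGFP (0.26 ± 0.07). The remaining differences were 0.25 ± 0.06 for ATP5MJ, 0.32 ± 0.08 for ATP5PB and 0.26 ± 0.07 for ATP5PD. Other probe sets of COX7C stood at 0.0152 and 0.29, and those of ATP5MJ (-0.35) and ATP5PB (-0.28) on the other side of 0. The other ATP5MG probe sets ranged from -0.16 to 0.29, with 1 of them below 0.

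The genes that were lower under siFFluc in SW780 were NDUFAF2, a late assembly factor of complex I, and NDUFB6. NDUFAF2 had signals of 938 and 1135 under siFFluc, against 1392 and 1438 under siEGFP (-0.45 ± 0.10, adjusted p = 0.0209). NDUFB6 had 4158 and 4506 under siFFluc, against 5432 and 5056 under siEGFP (-0.27 ± 0.07, adjusted p = 0.0335). In A549, siFFluc minus siEGFP passed for NDUFB6 alone of the 86 (1.16%), against 2.92% of all genes (higher 0 of 86, against 1.43%, and lower 1.16%, against 1.49%). NDUFB6 had 7141 and 7004 under siFFluc, against 8530.0 and 8841 under siEGFP there (-0.30 ± 0.07, adjusted p = 0.0327), so siFFluc was the lower control for NDUFB6 in both lines. The A549 call ended with any 1 of the 6 A549 arrays left out.

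The rises under siFFluc in SW780 moved with other bright transcripts and with the scaling. In the same comparison 37 of 53 cytosolic ribosomal protein genes rose and none fell (69.8% passed, against 5.71% of all genes). Their median was 0.35, against 0.0013 over all genes. The SW780 siFFluc arrays had the highest mean signals of the 12 (917 and 882, against 799 to 877). The part of these differences in the result was not tested. After quantile normalization none of the 86 genes rose and 2 fell. No gene of the 86 passed without SW780 siFFluc replicate 1 or without SW780 siEGFP replicate 2, and 22 passed without SW780 siFFluc replicate 2. Between 2 and 6 passed without any 1 of the 6 A549 arrays.

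More of these genes differed between the lines than under siKDM3A. Between the control arrays of SW780 and those of A549, 72 of the 86 genes passed (83.7%), against 68.4% of all genes, with 50 higher in SW780 (58.1%, against 29.9%) and 22 lower (25.6%, against 38.5%). The median difference was 0.24, against -0.11 over all genes. After quantile normalization the split was 33 higher and 25 lower, and with median scaling 57 and 17. Line, medium and gas phase cannot be told apart here. All 4 SW780 control arrays lay above or all below the 4 A549 control arrays for 42 and 21 of the 86 genes, together 73.3%, against 58.6% of all genes.

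**Figure D4:**
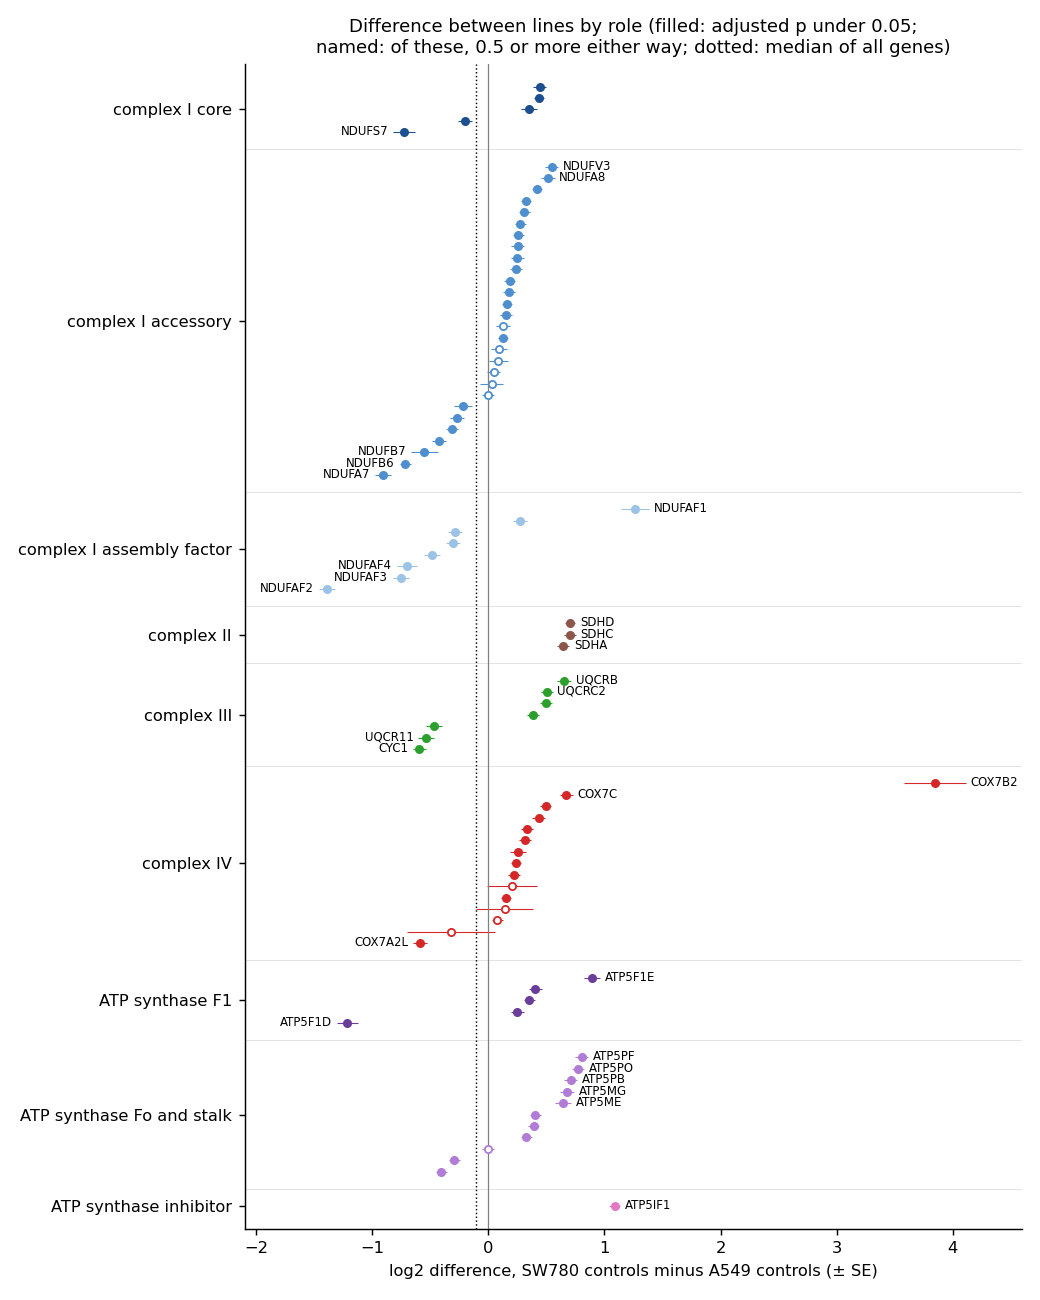
Difference between the control arrays of SW780 and those of A549 for every tested protein-coding gene, in log2 ± SE (horizontal axis), by role. Filled points passed the test, names are given from 0.5 either way, and the dotted line marks the median of all genes at -0.11. The plotted place of COX7B2 depends on the pseudocount (2.79 with 64 and 4.91 with 1). The 3 complex II genes lie together at 0.65 to 0.70, and 6 of the 8 assembly factors lie to the left of 0.

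COX7B2, a testis-type isoform of a complex IV subunit, was bright in SW780 alone. Its signals were 517, 585, 577 and 576 on the SW780 control arrays, against 36.6, 40.5, 35.3 and 1.2 on the A549 control arrays. The A549 values lay about the minimum for testing, so the gene was tested only through its SW780 signal, and the size of its log2 difference is set by the pseudocount (2.79 with 64, 3.85 with 16 and 4.91 with 1). ATP5IF1, the inhibitor of ATP synthase, had 5978, 6792, 6778 and 6509 on the SW780 control arrays, against 3045, 2978, 3112 and 3086 on the A549 control arrays (1.09 ± 0.05, adjusted p = 3.62e-10), and its other 2 probe sets had 0.44 and 0.73. The outer stalk of ATP synthase, which keeps the catalytic head from turning, held further genes of this kind. ATP5PO had 16031, 15361, 13877 and 12659.7 on the SW780 control arrays, against 8072, 8867, 8506 and 8294 on the A549 control arrays (0.77 ± 0.05, adjusted p = 1.15e-08). ATP5PF had 18663, 17366, 15497 and 15193 on the SW780 control arrays, against 10152, 9284, 9798 and 8882 on the A549 control arrays (0.80 ± 0.05, adjusted p = 1.85e-08). SDHD of complex II had 9235, 8873, 8603 and 8505 on the SW780 control arrays, against 5530.4, 5499, 5414 and 5158 on the A549 control arrays (0.70 ± 0.05, adjusted p = 1.47e-08). For these 5 genes every SW780 control array was above every A549 control array.

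In the other direction, NDUFAF2 had signals of 938, 1135, 1392 and 1438 on the SW780 control arrays, against 3202, 3254, 3224 and 3110.1 on the A549 control arrays (-1.39 ± 0.07, adjusted p = 7.96e-10). ATP5F1D, the delta subunit of the catalytic head, had 962, 1110.1, 1245 and 1097 on the SW780 control arrays, against 2145, 2837, 2817 and 2555 on the A549 control arrays (-1.22 ± 0.09, adjusted p = 5.36e-08). The groups did not overlap for either gene. NDUFA7 had 650.4, 670.4, 748 and 862 on the SW780 control arrays, against 1383, 1315, 1377 and 1439.5 on the A549 control arrays (-0.91 ± 0.07, adjusted p = 5.10e-08), but its second probe set differed by 1.04 the other way. NDUFAF3, an early assembly factor, had 1155, 1449.6, 1373 and 1342 on the SW780 control arrays, against 2275, 2297, 2156 and 2257 on the A549 control arrays (-0.75 ± 0.07, adjusted p = 3.67e-07). NDUFB6 had 4158, 4506, 5432 and 5056 on the SW780 control arrays, against 7141, 7004, 8530.0 and 8841 on the A549 control arrays (-0.72 ± 0.05, adjusted p = 1.61e-08). For all 5 genes the SW780 control arrays were below the A549 control arrays.

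The remaining genes that passed are given with their log2 differences, SW780 minus A549. Over all genes 68.4% passed, with 29.9% higher in SW780 and 38.5% lower. All 3 complex II genes were higher in SW780, the others being SDHC (0.70) and SDHA (0.65). In complex III, UQCRB (0.65), UQCRC2 (0.51), UQCR10 (0.50) and UQCRQ (0.38) were higher and UQCRC1 (-0.47), UQCR11 (-0.54) and CYC1 (-0.60) were lower. In complex IV 10 of 15 were higher, COX7B2 included, the others being COX7C (0.67), COX6A1 (0.49), COX7B (0.43), COX8A (0.33), COX6C (0.31), COX7A2 (0.25), COX6B1 (0.24), COX4I1 (0.22) and COX5B (0.15), and COX7A2L (-0.59), which helps complexes III and IV to join, was lower. In ATP synthase 13 of 17 were higher and 3 lower (94.1% passed). The head subunit genes ATP5F1E (0.89), ATP5F1A (0.40), ATP5F1C (0.35) and ATP5F1B (0.25) and the membrane and stalk genes ATP5PB (0.71), ATP5MG (0.68), ATP5ME (0.64), ATP5PD (0.40), ATP5MJ (0.39) and ATP5MC3 (0.33) were higher, and ATP5MC2 (-0.29) and ATP5MK (-0.41) were lower.

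Complex I was mixed, with 18 of its 33 subunit genes higher and 9 lower (81.8% passed, against 68.4% of all genes). Its median difference was 0.16, against -0.11 over all genes. Of the core, NDUFS1 (0.44), NDUFV2 (0.44) and NDUFS3 (0.35) were higher, and NDUFV1 (-0.20) and NDUFS7 (-0.73), the core subunit next to ubiquinone, were lower. Of the accessory subunits, NDUFV3 (0.55), NDUFA8 (0.51), NDUFB5 (0.42), NDUFC1 (0.32), NDUFAB1 (0.31), NDUFB9 (0.28), NDUFB3 (0.26), NDUFB11 (0.25), NDUFA10 (0.25), NDUFS6 (0.24), NDUFA12 (0.18), NDUFB1 (0.18), NDUFB4 (0.16), NDUFA2 (0.16) and NDUFA6 (0.13) were higher. The genes NDUFB7 (-0.55), NDUFA11 (-0.42), NDUFB8 (-0.31), NDUFS4 (-0.27) and NDUFB2 (-0.22) were lower. All 8 assembly factors passed, against 68.4% of all genes. NDUFAF1 (1.26) and NDUFAF5 (0.27) were higher, and NDUFAF4 (-0.70), NDUFAF8 (-0.49), NDUFAF7 (-0.30) and NDUFAF6 (-0.29) were lower beside NDUFAF2 and NDUFAF3.

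Several of these directions depended on the probe set. The other probe sets of SDHC ranged from -1.36 to 0.64 and those of UQCRB from -0.63 to 0.67. Other probe sets of COX4I1, NDUFA10, NDUFA6 and ATP5MJ were also of the opposite sign to the chosen one at an unadjusted p under 0.05. Those of NDUFB1, NDUFB7, NDUFS1 and ATP5PD were of the opposite sign above it. With the mean over probe sets NDUFA10 was lower in SW780 (-0.455, adjusted p = 0.00880). Other probe sets of the same sign differed in size by over 1.5 times from the chosen one in complex I for NDUFV3 (0.17), NDUFA2 (0.04), NDUFB2 (-0.69 to -0.47) and NDUFB8 (-0.42 to -0.06), and among the assembly factors for NDUFAF4 (-1.41), NDUFAF5 (0.12), NDUFAF7 (-0.95 to -0.52) and NDUFAF8 (-0.11). The same held in complexes III and IV for UQCRC2 (0.35 to 0.98), UQCR11 (-0.36), COX5B (0.40 to 0.62) and COX7B (0.21), and in ATP synthase, beside ATP5IF1, for ATP5F1C (0.20 to 0.86), ATP5F1E (0.51), ATP5MC3 (0.32 to 1.03) and ATP5PB (0.0067). After quantile normalization 17 of the 72 calls ended, among them those of COX4I1 (-0.0161), COX6B1 (-0.0308), COX7A2 (-0.0083), COX5B (-0.08), NDUFA12 (-0.06) and NDUFB1 (-0.08), and NDUFB4 was lower in SW780 (-0.10, adjusted p = 0.0452). With an array left out the calls of NDUFB2, NDUFA2 and NDUFA6 ended: NDUFB2 without A549 siEGFP replicate 2, A549 siFFluc replicate 2, SW780 siEGFP replicate 2 or SW780 siFFluc replicate 1, NDUFA2 without A549 siFFluc replicate 2, SW780 siEGFP replicate 1 or SW780 siFFluc replicate 2, and NDUFA6 with replicate 1 of either A549 control siRNA left out (adjusted p of 0.0503 to 0.0806).

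Other genes of the pathway were read from lists outside the rule. Of 42 assembly factors for complexes II to V and for complex I, 6 rose and 2 fell in SW780 (19.0% passed, against 11.9% of all genes) and 3 rose and 2 fell in A549 (11.9%, against 11.7%). LYRM7, an assembly factor of complex III, had signals of 989 and 949 on the siKDM3A arrays, against 1812 and 1853 under siFFluc and 1813 and 1835 under siEGFP in SW780 (-0.91 ± 0.08, adjusted p = 1.88e-05). In A549 LYRM7 had 617 and 582 on the siKDM3A arrays, against 1693 and 1677 under siFFluc and 1761 and 1519 under siEGFP (-1.45 ± 0.08, adjusted p = 1.45e-07), and the responses differed between the lines (0.54 ± 0.11 for SW780 minus A549, adjusted p = 0.025). TMEM70, an assembly factor of ATP synthase, rose by 0.26 ± 0.06 in SW780 and 0.25 ± 0.06 in A549. SDHAF3, an assembly factor of complex II, had 1092 and 1347 on the siKDM3A arrays, against 621 and 664 under siFFluc and 696 and 796 under siEGFP in SW780 (0.80 ± 0.13, adjusted p = 0.00195) and did not pass in A549 (-0.18 ± 0.13), and its responses differed between the lines (0.97 ± 0.18, adjusted p = 0.0219). The complex IV factor genes SCO2 (0.42 ± 0.09), TACO1 (0.37 ± 0.09), PET100 (0.30 ± 0.09) and COA5 (0.45 ± 0.07) rose in SW780, and COA6 (0.34 ± 0.09) rose in A549. TIMMDC1 of complex I (0.27 ± 0.05) also rose in A549, FOXRED1 of complex I (-0.34 ± 0.10) fell in A549, and UQCC1 of complex III (-0.30 ± 0.08) fell in SW780.

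Of 13 tested regulators of mitochondrial biogenesis 1 rose in SW780 (7.69%, against 11.9% of all genes) and 3 rose in A549 (23.1%, against 11.7%). TFAM, which packs and transcribes mitochondrial DNA, had signals of 4151 and 4029 on the siKDM3A arrays, against 2985 and 2978 under siFFluc and 3221 and 3261 under siEGFP in SW780 (0.39 ± 0.05, adjusted p = 6.57e-04). In A549 TFAM had 5839 and 6167 on the siKDM3A arrays, against 4743 and 4797 under siFFluc and 5004 and 5124 under siEGFP (0.29 ± 0.05, adjusted p = 0.00443). It was above all controls in both lines. YY1 (0.41 ± 0.08) and GABPB1 (0.38 ± 0.10), which encodes a GABP subunit, rose in A549. GABPA, which encodes the other GABP subunit listed, and NRF1 did not pass there. GABPA had a mean of 387.9 on the A549 siKDM3A arrays, against 460.2 on the controls, and NRF1 465.5, against 443.9. Of 11 citric acid cycle genes, OGDH (-0.86 ± 0.17), CS (-0.28 ± 0.08) and IDH3G (-0.31 ± 0.09) fell and SUCLA2 (0.26 ± 0.08) rose in SW780 (36.4%, against 11.9%). None of them passed in A549, against 11.7%. In A549, 4 were at an unadjusted p under 0.05, against 3568 of the 14057 over all genes. None of 5 electron carrier genes passed in either line. In each line 1 carrier gene was at an unadjusted p under 0.05, against 3622 of all genes in SW780 and 3568 in A549.

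The mitochondrial ribosome makes the subunits of these complexes that mitochondrial DNA encodes. Of 75 mitochondrial ribosomal protein genes 13 rose and 2 fell in SW780 (20.0%, against 11.9% of all genes) and 31 rose and none fell in A549 (41.3%, against 11.7%). Their medians were 0.14 and 0.21, against 0.03 and -0.02 over all genes, and 10 rose in both lines. After quantile normalization the counts were 14 and 1 in SW780 and 21 and 1 in A549, and with median scaling 4 and 3 in SW780 and 56 and 0 in A549. MRPS26 (0.56 ± 0.07, adjusted p = 3.81e-04) had the smallest p in A549 and MRPL33 (0.37 ± 0.06, adjusted p = 0.00195) in SW780. Of 53 cytosolic ribosomal protein genes 1 rose in SW780 (1.89%, against 11.9% of all genes) and none passed in A549, against 11.7%. In A549, 3 were at an unadjusted p under 0.05, against 3568 of the 14057 over all genes. The GABP letters stood in 42.0% of 69 mitochondrial ribosomal protein promoters and the YY1 letters in 23.2%, against 14.2% and 5.71% of all protein-coding promoters. The NRF1 letters stood in 10.1%, against 5.87%, the SP1 letters in 49.3%, against 44.4%, and the TATA letters in 2.9%, against 9.63%. A link between these letters and the changes was not tested.

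**Figure D5:**
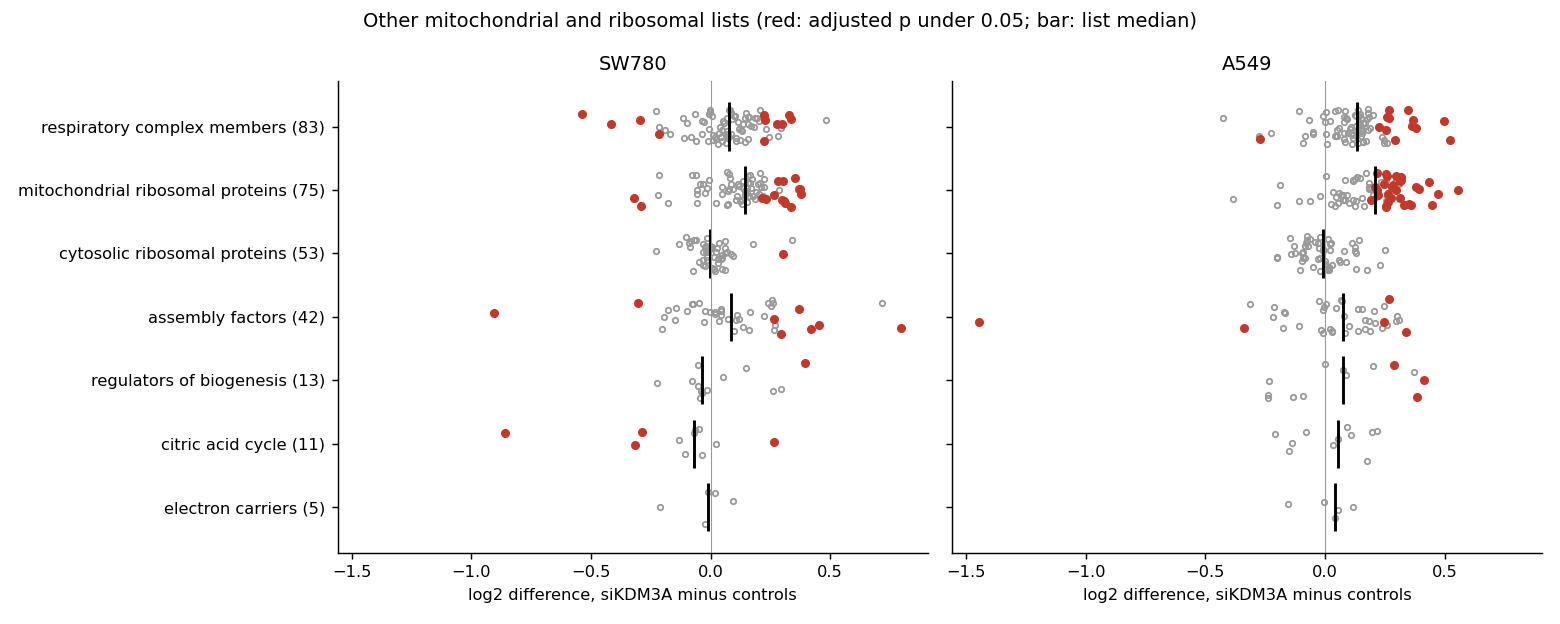
Change under siKDM3A (horizontal axis, log2 difference from the controls) of the tested protein-coding respiratory complex genes and of the other lists, in SW780 (left) and A549 (right). Each point is a gene, red points passed the test and the bar is the list's median. The mitochondrial ribosomal protein bar stands at 0.14 in SW780 and 0.21 in A549, and the cytosolic ribosomal protein bar close to 0 in both.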

How the data were processed

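The deposited files hold MAS5 signals, intensities on a linear scale, for 54675 probe sets on 12 arrays, per the submitters' processing notes. The trimmed mean was the same on all arrays, as a scaling of each whole array gives. The precision is limited by 2 arrays per group.

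Gene names came from the platform annotation of 2016. The 62 control probe sets were removed and probe sets of several genes (1801) or none (11721) were left unnamed. Each gene took its probe set of highest mean. Probe sets with a mean log2 signal under the 40th percentile were dropped, which left 32768 probe sets and 14057 genes. log2(signal + 16) was fitted with limma 3.58.1 (R 4.3.3) as 6 group means with an intensity-trended prior, and p-values were adjusted by Benjamini-Hochberg over all genes tested with a threshold of 0.05. The fit was tested on simulated data. Tables and figures were made with Python 3.11.15, pandas 2.3.3 and matplotlib 3.10.9.

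The genes and lists were chosen with earlier results of these data known. Genes named are those that passed a comparison, the isoform pairs and members of the other lists that passed. NDUFS3, UQCRC2 and NDUFV1-DT were named after their values were seen. The alternatives were a pseudocount of 1 or 64, no filter or a stricter filter, quantile normalization, median scaling, mean over probe sets, probe sets without an ID ending (s, x or a) that marks probes shared by several transcripts, no intensity trend, a replicate block, each control siRNA alone and each array left out, 24 in all for the siKDM3A results.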

Additional observations from a re-analysis of the deposited data

Results flagged for a closer look

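For 4 genes the response to siKDM3A differed between the lines by the interaction term of the limma fit, SW780 response minus A549 response. SDHD differed by 0.49 (adjusted p = 0.00970), with a rise in SW780 and a fall in A549. NDUFA7 differed by -0.61 (adjusted p = 0.0225), with a rise in A549 on the chosen probe set. Its second probe set had 0.10, and with the mean over probe sets NDUFA7 had -0.26 (adjusted p = 0.713). UQCRC1 differed by -0.59 (adjusted p = 0.0250), with a fall in SW780. SDHC differed by -0.42 (adjusted p = 0.0320), with a fall in SW780 on the chosen probe set. Its 5 other probe sets ranged from -0.53 to 0.31, and with the mean over probe sets SDHC had -0.11 (adjusted p = 0.515). Each of these calls ended without A549 siKDM3A replicate 2.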

How the results depend on the processing

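Numbers are genes of the 86 that passed, given without the share of all genes at the same setting. They show how the counts moved, and not whether these genes moved more than others. For siKDM3A in A549 (13), 51 passed with median scaling, 4 without the intensity trend, 20 with the replicate block, 8 against siEGFP alone and 3 to 25 with 1 array left out. For siKDM3A in SW780 (11), 6 passed with median scaling, 3 without the trend, 6 against siEGFP alone and 4 to 29 with 1 array left out. For the difference of the responses (4), 28 passed with median scaling (0 higher and 28 lower), 0 without the trend, 2 against siEGFP alone and 0 to 8 with 1 array left out. For siFFluc minus siEGFP in A549 (1), 0 passed with median scaling, 2 with the mean over probe sets, 0 without the trend and 0 to 2 with 1 array left out. For siFFluc minus siEGFP in SW780 (10), 2 passed without the filter, with quantile normalization and with median scaling, 6 with the mean over probe sets or with probe sets not marked as shared by several transcripts, 0 without the trend, 23 with the replicate block and 0 to 22 with 1 array left out. The lines differed for 57 to 74 genes in all alternatives. Same-numbered arrays did not deviate together (r from -0.0309 to 0.01601 over the 15 pairs of groups), so the replicate block pairs arrays by number alone. Apart from the filter, normalization and probe set settings, whose construction changes the values, the cause was not tested.

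Directions turned in these cases, over all calls between the lines and under siKDM3A and the control siRNAs. With the mean over probe sets, NDUFA7 had -0.0015 in A549 and 0.0659 between the lines, ATP5MJ -0.0467 between the control siRNAs of SW780, and COX4I1 -0.0213, ATP5MJ -0.0618, NDUFA10 -0.4550 and NDUFA6 -0.0084 between the lines. With probe sets not marked as shared, NDUFAF8 had -0.1151 in A549 and -0.2236 in SW780, and ATP5PB -0.2282 in A549. Between the lines the same setting gave SDHC -1.3590, COX4I1 -0.6716, UQCRB -0.6341, ATP5MJ -0.5149, ATP5PD -0.0242, NDUFB7 0.1211, NDUFB1 -0.0204 and NDUFA6 -0.1432, and between the control siRNAs of SW780 ATP5MG -0.1616, ATP5MJ -0.3452 and ATP5PB -0.2846. With quantile normalization COX6A1 had -0.0192, ATP5MJ -0.0113 and ATP5PD -0.0470 between those siRNAs, and COX4I1 -0.0161, COX6B1 -0.0308, COX7A2 -0.0083, NDUFA12 -0.0634, NDUFB1 -0.0783, NDUFB4 -0.0958 and COX5B -0.0849 between the lines.

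Only 1 of 13 calls in A549, 2 of 11 in SW780 and 37 of 72 between the lines held in every alternative run, and none of the 4 for the difference of the responses or of the 10 between the control siRNAs of SW780. The siKDM3A calls that held were of genes with 1 kept probe set, for which the alternatives that change the probe set could not differ in signal. With 2 arrays per group, dim genes such as the partner isoforms and the noncoding RNAs had spreads too wide for small changes to be detectable.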
